A study of Argopecten irradians concentricus with 9 samples.

Results

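The bay scallop Argopecten irradians concentricus closes its shell with the adductor muscle, and RNA of this muscle was compared between animals at low temperature and animals at room temperature. The low temperature group had 3 libraries and the room temperature group had 3, all from scallops labelled as 1 year old; 3 libraries at high temperature entered the model only for its estimate of the spread. The labels give no temperature in degrees, no duration of the exposure and no genotype, and they describe RNA isolated per tank with TRIzol. Whether a library stands for an animal of its own or for a tank is left unsaid, and the p-values therefore measure library-to-library spread, part of which may be technical. The gene models described are those with a mean of at least 1 FPKM (fragments scaled by the length of the gene model and by library) over the 6 low and room temperature libraries: 8544 of the 28864 gene models in the deposited table. Of the 8544, 5759 carry a Swiss-Prot protein name, 733 only a Pfam domain and 2052 neither. A name is the best match to a protein of another species, so it states similarity, and roles given below are those of the named protein in the animals where it was studied. Some names are carried by more than 1 tested gene model, and the values given are those of a single model.

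Scallops cannot hold a body temperature of their own, so the rates of their enzymes, membranes and protein folding move with the water. Chaperones such as HSP70 bind unfolded proteins, DnaJ proteins hand clients to them, and the proteasome degrades proteins tagged with ubiquitin; genes of both systems are known to respond to temperature in many animals. The adductor holds striated fibres for fast closing and smooth fibres for sustained closing, and arginine phosphate serves as its energy reserve. In RNA from whole tissue, fewer cells of a type and less RNA per cell cannot be told apart.

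The libraries held 13435732, 14706213 and 12502702 assigned reads at low temperature, against 15209589, 14438989 and 16229040 at room temperature, and the tested gene models took 98.8% to 99.3% of them. The deposited FPKM are not divided by these totals: reading 1 read back from each library gives divisors of 18641082, 13513324 and 10862949 reads at low temperature and 16747125, 14816565 and 14348456 reads at room temperature. Markers of adductor muscle were high in every library: the match to the regulatory light chain of smooth adductor myosin was at 29855 to 53789.8 FPKM at low temperature and 39264 to 45426 FPKM at room temperature, and adductor actin was at 13527 to 30100.3 FPKM at low temperature and 20055 to 29050.2 FPKM at room temperature. Low temperature replicates 1 and 3 stood apart from the rest. Low temperature replicate 1 had the smallest sum of FPKM, 492312, where the other 5 libraries had sums between 666769.9 and 864235. On the leading principal component, with 29.5% of the variance, low temperature replicate 3 scored 45.5 and the other 5 libraries scored between -22 and 7.13. Its correlation with the other libraries of its group, from 0.926 to 0.944, was no higher than that of room temperature replicates with low temperature replicate 2, 0.946 to 0.949. Because the FPKM sums differ, list counts are also given after all libraries were brought to equal FPKM sums.

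The comparison asked which muscle genes were higher or lower at low temperature, and few differences passed the test against the spread between libraries. By limma on log2(FPKM + 1), with a Benjamini-Hochberg adjusted p under 0.05, 13 gene models fell at low temperature, 0.152% of those tested, and 0 rose, 0.0%. Without adjustment, 426 lower and 298 higher gene models had a limma p under 0.05, and voom on the recovered whole reads called 7 lower and 1 higher. A wider description counts the gene models whose libraries do not overlap between the groups. Every low temperature library lay below every room temperature library in 746 gene models, 8.73% of those tested, and above every one in 556, 6.51%. Gene models above thus made up 42.7% of the non-overlapping ones, and 58.6% at equal FPKM sums, where 382 lay below and 541 above. The median log2 change over all 8544 was -0.036, and 0.051 at equal FPKM sums. Non-overlap describes 6 libraries and is no test; the only gene models called by limma are the 13.

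Gene models above were scarcer at the median than those below. The 556 gene models above had a median level of 2.53 FPKM and the 746 below a median of 4.56 FPKM. Among gene models of 1 to 5 FPKM, 7.73% lay above and 7.62% below. From 5 to 20 FPKM 5.03% lay above and 11.5% below, and from 100 FPKM upward 1.49% lay above and 6.19% below. An absolute log2 change of at least 1 was found in 77 of those above and in 141 of those below. A Swiss-Prot name was carried by 357 of those above and by 571 of those below.

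**Figure D1:**
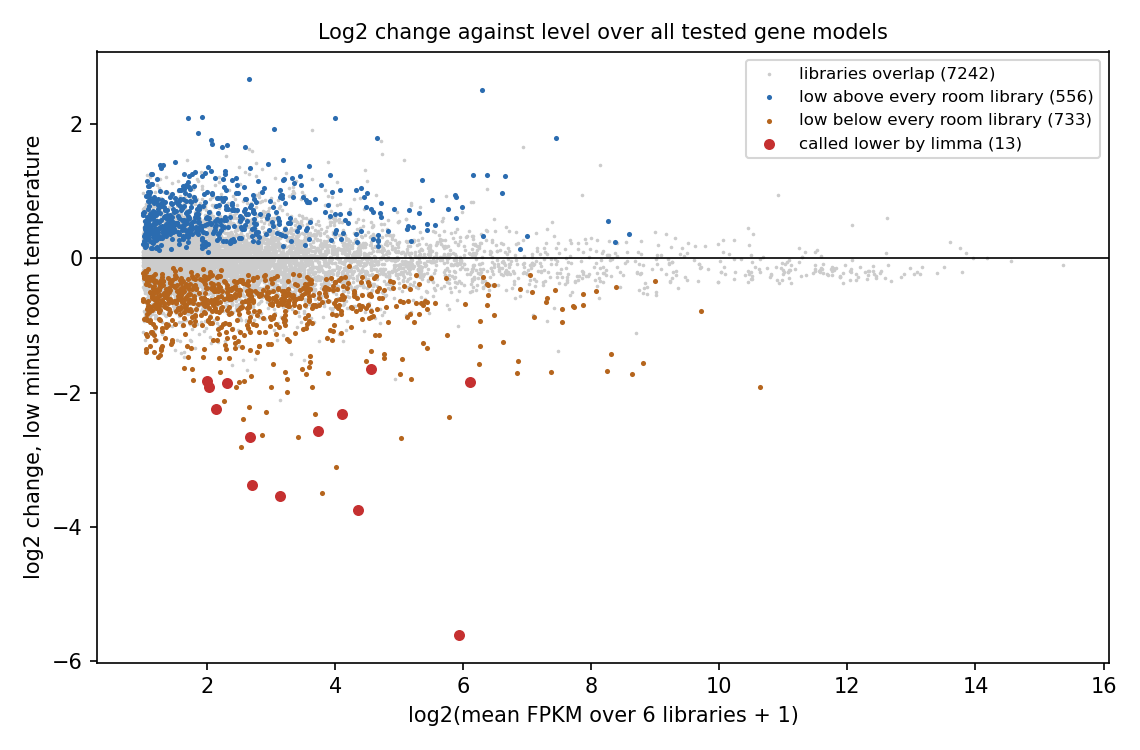
Log2 change, low minus room temperature (vertical axis), against the log2 of the mean FPKM + 1 over the 6 libraries (horizontal axis) for the 8544 tested gene models, with non-overlapping gene models in blue (556 above) or brown (below) and the 13 called ones in red. The called gene models all lie below 0, and gene models above every room temperature library thin out toward high levels.

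Chaperone genes were among the gene models that fell. The model on Contig769 from 397960 to 398634 matches major heat shock 70 kDa protein Ab, which belongs to the HSP70 family of chaperones, and was at 0.874, 1.32 and 0.136 FPKM in the low temperature libraries, against 10.4, 12.3 and 7.12 FPKM in the room temperature libraries (log2 change -2.66, SE 0.335, limma adjusted p = 0.0132). Its neighbour on the same contig, matching heat shock 70 kDa protein and lying from 396686 to 397642 on the minus strand, was at 0.729, 0.619 and 0.192 FPKM at low temperature, against 5.18, 8.96 and 4.81 FPKM at room temperature (log2 change -2.25, limma adjusted p = 0.0421). Another HSP70 model of this stretch, a match to heat shock protein 70 B2 from 400687 to 402630 on the plus strand, was at 0.607, 1.87 and 0.994 FPKM at low temperature and 7.62, 14.8 and 5.7 FPKM at room temperature and did not pass (log2 change -2.21, limma adjusted p = 0.0754). The groups do not overlap in any of these 3 models, and reads may not separate such similar neighbours. The first and second of them both lie on the minus strand, with lengths of 675 and 957 bases, against 1944 bases for the third. Whether the shorter models are parts of a single gene was not tested. The co-chaperone DnaJ homolog subfamily B member 4, which stimulates HSP70, was at 9.11, 12 and 10.2 FPKM at low temperature, against 40.7, 30.5 and 32.9 FPKM at room temperature (log2 change -1.64, SE 0.238, limma adjusted p = 0.0266). Each low temperature library lay at 12 FPKM or less and each room temperature library at 30.5 FPKM or more.

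Transcription factors and secreted factors made up a second group. The match to CCAAT/enhancer-binding protein gamma, a bZIP factor that pairs with other bZIP proteins, lies on Contig225 from 1170825 to 1171187 and was at 4.14, 5.71 and 4.56 FPKM at low temperature, against 30.8, 27.7 and 24.8 FPKM at room temperature (log2 change -2.31, SE 0.253, limma adjusted p = 0.00882). A gene model with a bZIP domain on Contig782 was at 1.94, 5.97 and 1.56 FPKM at low temperature, against 24.3, 23.9 and 16.1 FPKM at room temperature (log2 change -2.56, limma adjusted p = 0.0318). The model matching growth/differentiation factor 15, of the secreted TGF-beta family, was at 0.0243, 0.0335 and 0.0417 FPKM at low temperature, 3 reads in all, against 18.6, 4.92 and 9.51 FPKM at room temperature, 1150 reads in all (log2 change -3.37 at a pseudocount of 1, limma adjusted p = 0.00882). This model carries no Pfam domain, so the family rests on the name match alone. A gene model with a Noggin domain, which in vertebrates binds bone morphogenetic proteins, was at 28, 33.9 and 24.3 FPKM at low temperature, against 140.2, 80.7 and 101 FPKM at room temperature (log2 change -1.84, limma adjusted p = 0.0421). It was the most abundant annotated gene model among the 13.

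The remaining called gene models were an oxidase, a protease and unannotated models. Alternative oxidase, which in mitochondria reduces oxygen without the cytochrome chain, was at 0.634, 0.816 and 0.798 FPKM at low temperature, against 5.69, 4.31 and 5.66 FPKM at room temperature (log2 change -1.82, SE 0.245, limma adjusted p = 0.0169). The match to ADAM family mig-17, a secreted metalloprotease known from the nematode gonad, was at 0.892, 0.542 and 0.674 FPKM at low temperature, against 5.84, 4.04 and 6.58 FPKM at room temperature (log2 change -1.91, limma adjusted p = 0.0132). Of the 4 models without annotation, evm.TU.Contig257.11 was at 1.09, 1.57 and 1.24 FPKM at low temperature and 186, 91.3 and 79 FPKM at room temperature (log2 change -5.60, limma adjusted p = 0.00882), the greatest fall of the 13. The others were evm.TU.Contig179.11 (log2 change -3.75) and evm.TU.Contig826.22 (log2 change -3.54), with limma adjusted p of 0.0138 and 0.0266, and a model on Contig965 (evm.TU.Contig965.9, log2 change -1.85, limma adjusted p = 0.0421).

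**Figure D2:**
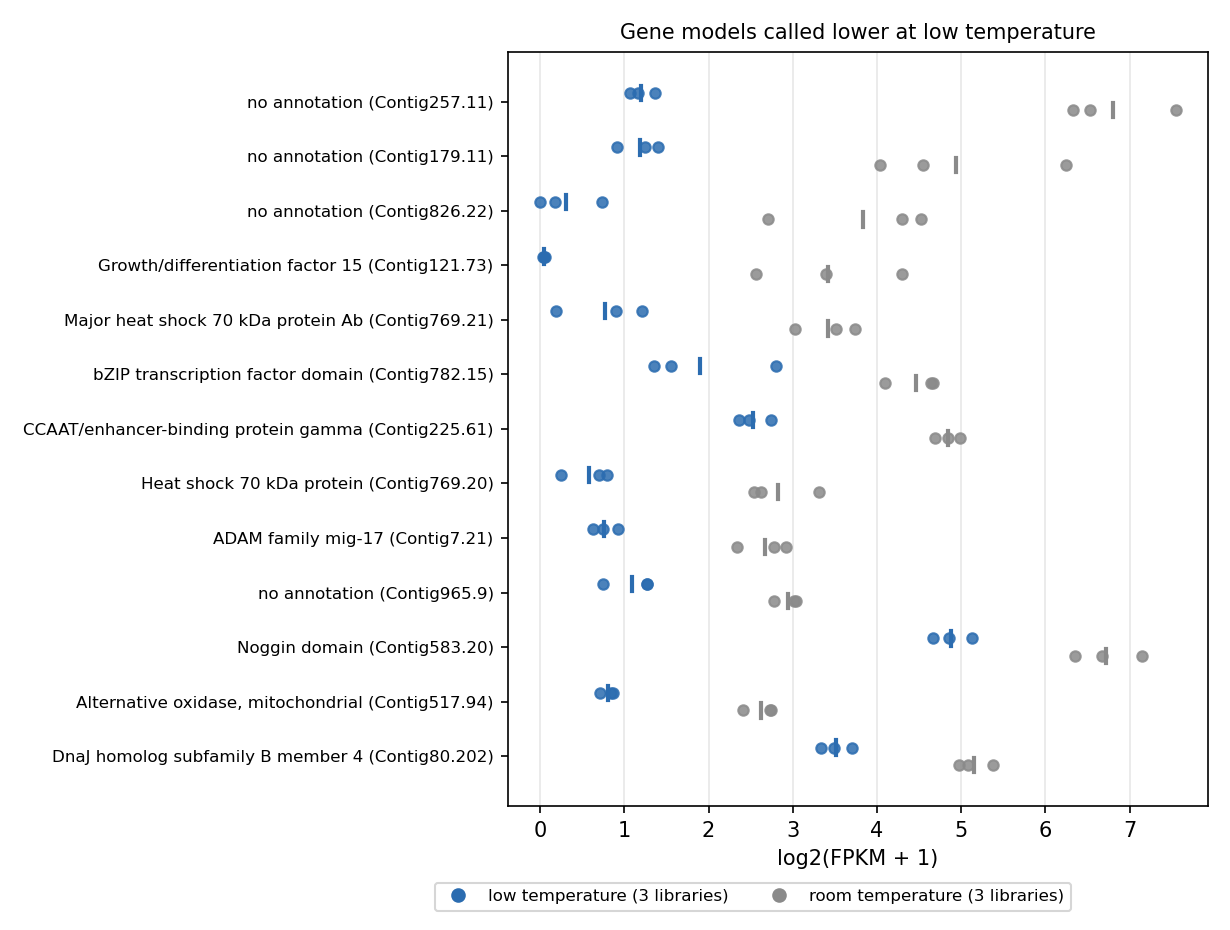
Log2(FPKM + 1) of the 13 gene models called lower at low temperature, 1 point for each library and a bar at the mean, with low temperature in blue above room temperature in grey. In every row the 3 blue points lie left of the 3 grey points; the bZIP gene model has 1 low temperature library, at 5.97 FPKM, nearer to room temperature than the other two.

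Levels across all 3 temperatures differed among these gene models. DnaJ B member 4 averaged 10.4 ± 1.49 FPKM at low temperature, 34.7 ± 5.29 FPKM at room temperature and 58.9 ± 5.77 FPKM at high temperature (mean ± SD of 3 libraries each, here and in the next sentences). The bZIP gene model averaged 3.16 ± 2.44 FPKM at low temperature, 21.5 ± 4.63 FPKM at room temperature and 35.2 ± 9.24 FPKM at high temperature. C/EBP gamma averaged 4.8 ± 0.812 FPKM at low temperature, and 27.7 ± 3 FPKM at room temperature beside 27.7 ± 6.68 FPKM at high temperature. Alternative oxidase averaged 0.749 ± 0.1 FPKM at low temperature, 5.22 ± 0.79 FPKM at room temperature and 5.58 ± 1.68 FPKM at high temperature. Growth/differentiation factor 15 averaged 0.0332 ± 0.00871 FPKM at low temperature, 11 ± 6.97 FPKM at room temperature and 2.25 ± 0.783 FPKM at high temperature. No difference between high and low temperature was tested here.

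The 13 calls changed with the settings and when single libraries were left out, which also leaves the test fewer libraries. Without low temperature replicate 1 limma called 0 of the 13 and without low temperature replicate 3 also 0; it called 5 without low temperature replicate 2, and 4, 7 and 6 without room temperature replicates 1, 2 and 3. With no filter on low values 1 was called, and at equal FPKM sums 5 of the 13. The log2 change of C/EBP gamma lay between -2.53 and -2.21 over 17 alternatives and it was called in 15 of them, that of alternative oxidase lay between -2.78 and -1.75 with 7 calls of 16, and that of DnaJ B member 4 between -1.74 and -1.52 with 6 calls of 17. The log2 change of growth/differentiation factor 15, whose low temperature level rests on 3 reads, ran from -7.67 to -2.93 with 13 calls of 17. No alternative turned the sign of a called gene model, which for groups that do not overlap only a rescaling of the libraries could do.

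Gene lists built from words in the protein names put these calls into wider groups, each read against the 8.73% and 6.51% of all gene models that lay below and above. At equal FPKM sums these shares of all gene models are 4.47% below and 6.33% above. Of 107 gene models in the table named as HSP70 or HSP90, 21 were tested; 2 fell, and 10 lay below every room temperature library and 1 above (47.6% and 4.76%, median log2 change -0.42); the 1 above carries an immunoglobulin domain and no HSP70 domain. At equal FPKM sums 7 lay below and 1 above. Besides those named, members below included further matches to heat shock protein 70 B2, one at 0.218, 0.7 and 0.664 FPKM at low temperature against 3.09, 4.44 and 3.55 FPKM at room temperature (log2 change -1.63, limma adjusted p = 0.15). The constitutive heat shock cognate 71 kDa protein, the most abundant member, was at 212, 238 and 197 FPKM at low temperature and 229, 239 and 278 FPKM at room temperature. Its groups overlap, and its log2 change was -0.20 (limma adjusted p = 0.897).

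Co-chaperones and other folding factors had shares of 23.3% and 24.4% below every room temperature library. Among 30 tested DnaJ proteins 1 fell, 7 lay below every room temperature library and 1 above (median log2 change -0.29); at equal FPKM sums 3 lay below. The most abundant of them, DnaJ homolog subfamily B member 5, was at 226 to 306 FPKM at low temperature and 221 to 279 FPKM at room temperature. Of 41 chaperonin, prefoldin and co-factor genes, 10 lay below and 1 above (median -0.23), and 4 below at equal FPKM sums. The match to BAG family molecular chaperone regulator 3, a partner of HSP70 in muscle, was at 2.04, 2.11 and 0.877 FPKM at low temperature, against 4.89, 9 and 5.58 FPKM at room temperature (log2 change -1.48, limma adjusted p = 0.206). Small heat shock proteins hold unfolding proteins without ATP. The alpha-crystallin B chain match was at 5135, 3073 and 3924 FPKM at low temperature and 1849, 6246 and 5579.7 FPKM at room temperature, with overlapping groups. One of the 2 heat shock protein beta-8 models was at 128, 145 and 135 FPKM at low temperature, against 177, 260 and 267 FPKM at room temperature (log2 change -0.76, limma adjusted p = 0.48).

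**Figure D3:**
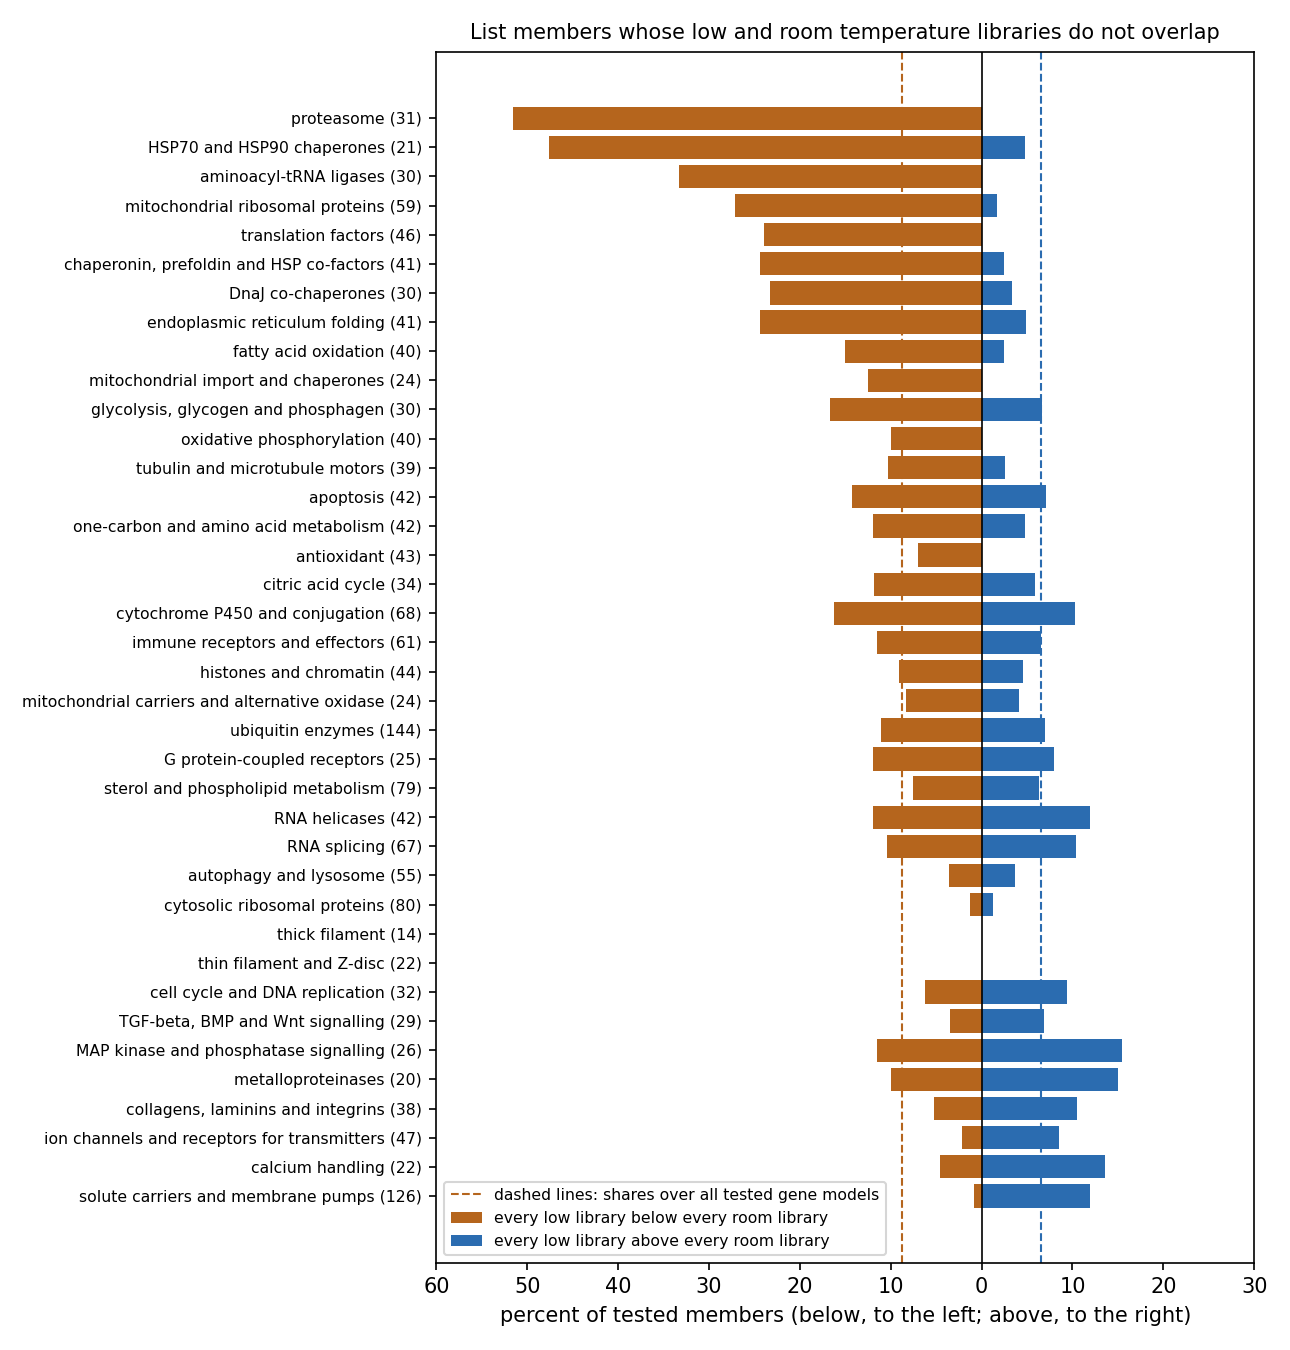
Percent of tested members of 38 gene lists of function with at least 14 tested members (number in brackets) in which every low temperature library lay below (brown, to the left) or above (blue, to the right) every room temperature library. All shares are in the deposited scaling. Dashed lines mark the shares over all tested gene models, 8.73% below and 6.51% above. The proteasome has the longest bar to the left, 51.6%, and thick and thin filament lists have no bar.

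Proteasome subunits had 51.6% of their tested gene models below every room temperature library, the largest share among the 38 lists plotted by share in the deposited scaling. Of 31 tested subunits, out of 32 in the table, 27 had a log2 change below 0, and 16 lay below every room temperature library and 0 above (median log2 change -0.46). By limma 0 were called, with 7 lower and 0 higher at an unadjusted p under 0.05, and 0 were called with array weights or with voom. At equal FPKM sums 9 of the 31 lay below, where the share of all gene models was 4.47%. In that scaling 7 of 21 HSP70 and HSP90 models lay below, so the proteasome share was no longer the largest. With single libraries left out 16 to 22 proteasome subunits lay below. This count cannot fall under 16, because leaving out a library only makes non-overlap easier to meet. Of the 16, 8 are alpha and beta subunits of the core, which holds the protease sites, and 8 are subunits of the regulatory particle, which receives tagged proteins. Proteasome subunit beta type-2, of the core, was at 12.2, 16.6 and 10.9 FPKM at low temperature, against 17.4, 20.4 and 30.5 FPKM at room temperature (log2 change -0.72, limma adjusted p = 0.635). Non-ATPase regulatory subunit 7, of the lid, was at 3.61, 3.42 and 4.2 FPKM at low temperature, against 6.24, 6.12 and 8.12 FPKM at room temperature (log2 change -0.72, limma adjusted p = 0.458). The small subunit DSS1, the most abundant, was at 45.3, 55.3 and 92.7 FPKM at low temperature and 59.5, 98.7 and 74.8 FPKM at room temperature, and the groups overlap. Over the 16, log2 changes ran from -0.72 to -0.44.

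Enzymes that attach and remove ubiquitin had members on both sides. Of 144 tested, 16 lay below and 10 above (11.1% and 6.94%, median -0.02), near the 8.73% and 6.51% of all gene models. At equal FPKM sums 8 lay below and 6 above, where the shares of all gene models were 4.47% and 6.33%. Ubiquitin-conjugating enzyme E2 H, with the lowest log2 change of the list, was at 8.54, 8.46 and 7.08 FPKM at low temperature, against 20, 20.4 and 17.8 FPKM at room temperature (log2 change -1.18, limma adjusted p = 0.0939). E3 ubiquitin-protein ligase MARCH1, a membrane ligase, was at 7.5, 5.62 and 6.97 FPKM at low temperature, against 1.77, 4.61 and 3.55 FPKM at room temperature (log2 change 0.89, limma adjusted p = 0.379). Sequestosome-1, a receptor that brings ubiquitinated cargo to autophagy, was at 28.3, 32.3 and 36.9 FPKM at low temperature and at 76.8, 74.3 and 66 FPKM at room temperature (log2 change -1.14, limma adjusted p = 0.15). Of 55 tested autophagy and lysosome genes 2 lay below (3.64%), this one and subunit 5 of a complex for lysosome-related organelles, and 2 lay above (3.64%). At equal FPKM sums 1 lay below and 4 above. Cathepsin L, a lysosomal protease and the most abundant of that list, was at 190.4 to 591 FPKM at low temperature and 322 to 648 FPKM at room temperature, with overlap.

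Genes for folding in the endoplasmic reticulum lay below in part. Of 41 tested 10 lay below and 2 above (24.4% and 4.88%, median -0.28), and 4 below and 2 above at equal FPKM sums. A model of the 78 kDa glucose-regulated protein, the HSP70 of this compartment, was at 13.5, 12.4 and 17.6 FPKM at low temperature, against 31, 35.2 and 32.1 FPKM at room temperature (log2 change -1.14, SE 0.34, limma adjusted p = 0.333). It is 1 of 3 tested models of that name, and 1 model of the same name lies within 20000 bases of it. Protein disulfide-isomerase A6, which forms disulfide bonds, was at 3.8, 3.84 and 2.94 FPKM at low temperature, against 6.4, 7.72 and 7.64 FPKM at room temperature (log2 change -0.87, limma adjusted p = 0.337). Calnexin, a lectin chaperone, lay on the other side with 5.91, 5.12 and 6.06 FPKM at low temperature and 2.81, 4.15 and 5.06 FPKM at room temperature (log2 change 0.44, limma adjusted p = 0.661). By limma 0 genes of the list were called, with 4 lower and 0 higher at an unadjusted p under 0.05, and with array weights and voom 0 were called.

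**Figure D4:**
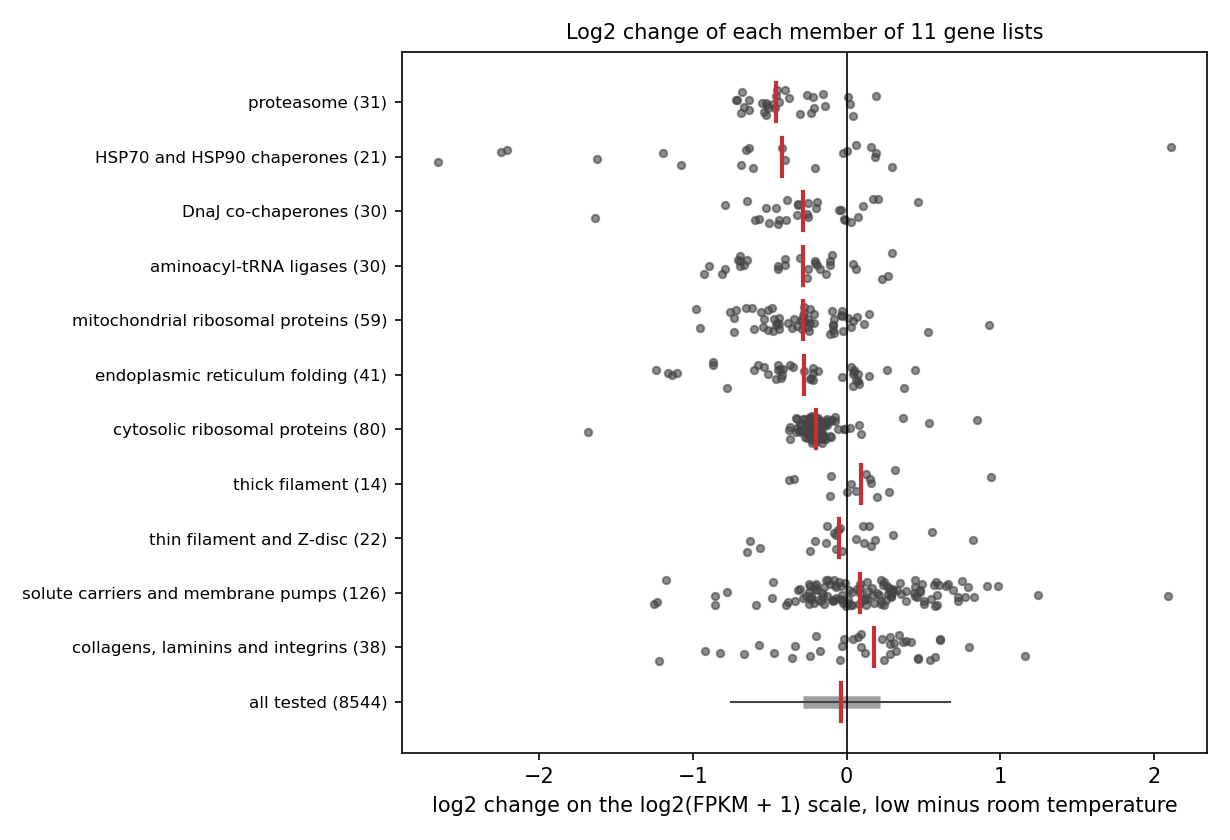
Log2 change of each tested member of 11 gene lists (points, with the list's median in red), low minus room temperature, and for all 8544 gene models the median with the span of percentiles 25 to 75 (thick) and 5 to 95 (thin), from -0.75 to 0.67. Proteasome subunits have a median of -0.46, cytosolic ribosomal proteins cluster near their median of -0.20, and solute carriers spread to both sides.

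Genes for the machinery of translation lay below in part. Of 30 tested aminoacyl-tRNA ligases, which load amino acids onto tRNA, 10 lay below every room temperature library and 0 above (33.3%, median -0.28), and 3 at equal FPKM sums. Tryptophan--tRNA ligase was at 12.7, 14.7 and 14 FPKM at low temperature, against 27.2, 29.6 and 23.3 FPKM at room temperature (log2 change -0.90, limma adjusted p = 0.242). Of 59 mitochondrial ribosomal proteins 16 lay below and 1 above (27.1% and 1.69%, median -0.28), and 10 below at equal FPKM sums. Subunit S23 of this ribosome was at 7.66, 7.79 and 5.51 FPKM at low temperature, against 12.6, 15.6 and 15.7 FPKM at room temperature (log2 change -0.98, limma adjusted p = 0.333), and L43 was at 0.37, 0.553 and 0.476 FPKM at low temperature, against 1.72, 1.82 and 1.96 FPKM at room temperature (log2 change -0.95, limma adjusted p = 0.206). Of 46 translation factors 11 lay below and 0 above (median -0.19), and 3 below at equal FPKM sums. Elongation factor 1-alpha, the most abundant of these, was at 9481 to 13048 FPKM at low temperature and 10984 to 13769.9 FPKM at room temperature, with overlap.

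Cytosolic ribosomal proteins had few non-overlapping members in the deposited scaling and more at equal FPKM sums. Of 80 tested, 74 had a log2 change below 0 with a median of -0.20, yet 1 lay below every room temperature library and 1 above. At equal FPKM sums 21 of the 80 lay below and 2 above, with a median of -0.09. The shares of all gene models were then 4.47% below and 6.33% above. The list's median was 0.08 without low temperature replicate 1 and -0.39 without low temperature replicate 3, so leaving out replicate 1 turned its sign. Ribosomal protein S27, the most abundant, was at 8689.9, 14690.2 and 16808 FPKM at low temperature and 13201, 14655 and 17128 FPKM at room temperature. The single one below, L17, was at 208, 40.1 and 261 FPKM at low temperature, against 318, 403 and 577 FPKM at room temperature (log2 change -1.68, SE 0.83, limma adjusted p = 0.612), with low temperature replicate 2 far under the other two.

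Splicing factors and RNA helicases had as many members above as below. Of 67 tested splicing genes 7 lay above and 7 below (10.4% each), and of 42 helicases 5 lay above and 5 below (11.9% each). Of all gene models 6.51% lay above and 8.73% below. At equal FPKM sums 6 splicing genes lay above and 2 below, and 5 helicases above and 0 below. The match to DDX5, a helicase of RNA processing and transcription, was at 108, 144 and 124 FPKM at low temperature, against 90.1, 75.3 and 36.7 FPKM at room temperature (log2 change 0.97, SE 0.38, limma adjusted p = 0.515). DDX58, the RNA sensor also called RIG-I, was at 4.09, 3.05 and 3.51 FPKM at low temperature and 8.59, 7.64 and 4.2 FPKM at room temperature (log2 change -0.74, limma adjusted p = 0.477). Splicing factor 3B subunit 1, which binds the branch site, had a small spread, with 9.42, 9.18 and 9.26 FPKM at low temperature and 6.71, 7.67 and 7.24 FPKM at room temperature (log2 change 0.33, limma adjusted p = 0.743).

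No gene model rose by limma, and the 556 that lay above every room temperature library are described by their levels. Of the 357 with a name, 256 belonged to none of the lists. Zinc finger protein ush, a cofactor of GATA factors in the fly, had the lowest limma adjusted p among them, 0.0754, at 2.01, 1.85 and 2.5 FPKM at low temperature and 0.291, 0.171 and 0.449 FPKM at room temperature (log2 change 1.26, SE 0.224). Array weights and voom on the recovered reads each brought it past the threshold. Its model carries no Pfam domain. Insulin-induced gene 1 protein, which holds back sterol synthesis in mammals, was at 4.65, 4.57 and 8.38 FPKM at low temperature, against 2.88, 1.22 and 1.49 FPKM at room temperature (log2 change 1.26, limma adjusted p = 0.206). ETS homologous factor, a transcription factor of epithelia in mammals, was at 6.95, 8.09 and 15.7 FPKM at low temperature, against 3, 1.76 and 4.84 FPKM at room temperature (log2 change 1.41, limma adjusted p = 0.421). All of these lay above in 3 of 3 low temperature libraries, as the definition of the set requires.

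The greatest log2 difference of the named gene models above was that of a model on Contig1006 named heat shock 70 kDa protein 12A. Its only Pfam domain is an immunoglobulin I-set domain, which goes against the name, and no role is given to it here. It was at 0.544, 5.66 and 10.1 FPKM at low temperature, against 0, 0 and 0.413 FPKM at room temperature (log2 change 2.11, SE 0.643, limma adjusted p = 0.339), with 1256 reads at low temperature and 38 reads at room temperature in all. This model is the 1 counted above in the HSP70 and HSP90 list. Kynurenine/alpha-aminoadipate aminotransferase, an enzyme of tryptophan and lysine breakdown, was at 3.51, 1.98 and 1.92 FPKM at low temperature, against 0, 1 and 0.207 FPKM at room temperature, with 38 reads at low temperature and 6 reads at room temperature (log2 change 1.34, limma adjusted p = 0.198). Biogenesis of lysosome-related organelles complex 1 subunit 1 was at 30.2, 23.7 and 16.4 FPKM at low temperature and 13.5, 0.874 and 5.41 FPKM at room temperature (log2 change 2.09, limma adjusted p = 0.338). Tetratricopeptide repeat protein 9A and the match to L-dopachrome tautomerase yellow-f2, of the pathway of melanin in the fly, also lay above, with log2 changes of 1.46 and 1.25.

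**Figure D5:**
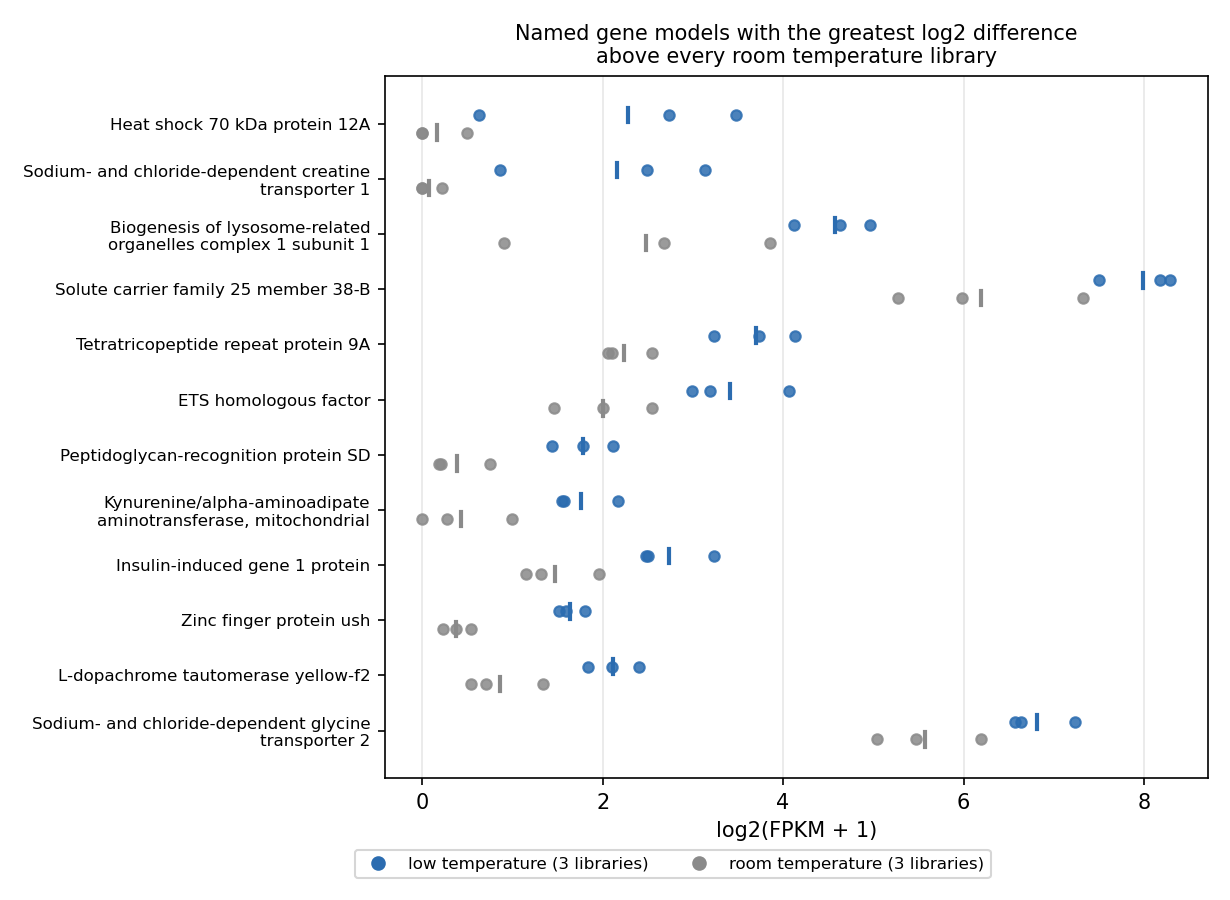
Log2(FPKM + 1) of the 12 named gene models with the greatest log2 difference among those in which every low temperature library (blue, upper row of each pair) lay above every room temperature library (grey, lower row). Bars mark means; none of the 12 passed the limma test, and zinc finger protein ush has the lowest adjusted p, at 1.85 to 2.5 FPKM at low temperature against 0.171 to 0.449 FPKM at room temperature.

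Solute carriers and membrane pumps are the proteins that move ions, sugars and amino acids across membranes. The deposited table names 664 of them, of which 126 were tested. In the deposited scaling 15 lay above and 1 below (11.9% and 0.794%, median log2 change 0.09), against 6.51% and 8.73% of all gene models. At equal FPKM sums 10 of the 126 lay above and 1 below, against 6.33% and 4.47% of all gene models. The share above was then nearer to that of all gene models. By limma 0 were called, while 8 members with a log2 change above 0 and 3 with one below 0 had an unadjusted p under 0.05, and with array weights and voom 0 were called. The match to sodium- and chloride-dependent glycine transporter 2, which carries glycine into cells with sodium and chloride, was at 149.9, 98.2 and 94.1 FPKM at low temperature, against 43.3, 72.4 and 31.9 FPKM at room temperature (log2 change 1.24, SE 0.38, limma adjusted p = 0.339). It lies on Contig133 from 1904781 to 1944793 and is 1 of 12 tested models of that name. Of the separate list of mitochondrial carriers, solute carrier family 25 member 38-B, which in vertebrates brings glycine into mitochondria for haem synthesis, was at 288, 180.2 and 312 FPKM at low temperature, against 37.7, 62.2 and 159 FPKM at room temperature (log2 change 1.79, SE 0.472, limma adjusted p = 0.255). A creatine transporter match was at 7.79, 0.814 and 4.64 FPKM at low temperature, against 0, 0 and 0.16 FPKM at room temperature, with 451 reads at low temperature and 5 reads at room temperature, and its model overlaps another gene model (log2 change 2.09, limma adjusted p = 0.492).

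Further members of the transporter list had smaller log2 changes. A b(0,+)-type amino acid transporter was at 5.01, 3.9 and 3.83 FPKM at low temperature, against 2.16, 2.25 and 0.775 FPKM at room temperature (log2 change 0.99, limma adjusted p = 0.323). Matches to monocarboxylate transporters 9, 10, 12 and 14 were above, with log2 changes from 0.30 to 0.77. The only member below was a facilitated glucose transporter of family 2, at 2.58, 1.24 and 3.21 FPKM at low temperature and 7.89, 5.56 and 5.67 FPKM at room temperature (log2 change -1.18, limma adjusted p = 0.305). The taurine transporter, which in molluscs moves a major osmolyte and was the most abundant of the list, was at 109 to 181 FPKM at low temperature and 80.8 to 265 FPKM at room temperature, with overlap.

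Of 47 tested channels and receptors, 4 lay above and 1 below (8.51% and 2.13%, median log2 change 0.08). The share above was near the 6.51% of all gene models. At equal FPKM sums 3 of the 47 lay above and 0 below, against 6.33% and 4.47% of all gene models. Potassium channel subfamily T member 1, a channel opened by intracellular sodium, was at 4.59, 4.64 and 7.3 FPKM at low temperature and 1.75, 0.815 and 3.44 FPKM at room temperature (log2 change 1.19, limma adjusted p = 0.339). Acetylcholine receptor subunit alpha-like 1 was at 2.47, 2.22 and 3.99 FPKM at low temperature, against 1.28, 0.991 and 0.977 FPKM at room temperature (log2 change 0.88, limma adjusted p = 0.376). Voltage-dependent calcium channel type D was above too, with a log2 change of 0.55. Of 25 G protein-coupled receptors 2 lay above and 3 below, and 3 above and 4 below at equal FPKM sums. Of these, 5-hydroxytryptamine receptor 2A, a serotonin receptor, was at 2.75, 3.75 and 3.33 FPKM at low temperature, against 1.67, 0.51 and 1.65 FPKM at room temperature (log2 change 0.95, limma adjusted p = 0.308). Neuropeptide FF receptor 2 was at 1.82, 1.92 and 2.43 FPKM at low temperature, against 7.56, 5.36 and 7.38 FPKM at room temperature (log2 change -1.34, SE 0.24, limma adjusted p = 0.0759).

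Genes listed under sugar use lay on both sides. Phosphoenolpyruvate carboxykinase, an enzyme of glucose synthesis in vertebrates, lies on Contig644 from 1094771 to 1112882 and was at 122, 67.2 and 109 FPKM at low temperature, against 36.7, 33.5 and 52.4 FPKM at room temperature (log2 change 1.24, SE 0.32, limma adjusted p = 0.253). Its role in this muscle was not tested. Hexokinase-2, which traps glucose as its phosphate, was at 4.74, 4.64 and 6.94 FPKM at low temperature, against 23.1, 13 and 14.3 FPKM at room temperature (log2 change -1.45, SE 0.28, limma adjusted p = 0.107). Octopine dehydrogenase, which in scallops ends glycolysis without oxygen by joining pyruvate to arginine, was at 7.45, 11.9 and 11.5 FPKM at low temperature, against 36.6, 40.1 and 20.2 FPKM at room temperature (log2 change -1.53, SE 0.31, limma adjusted p = 0.114). Over the whole list of 30 glycolysis, glycogen and phosphagen genes, 5 lay below and 2 above (16.7% and 6.67%), and 2 below and 1 above at equal FPKM sums. Arginine kinase, which makes the phosphate reserve of the muscle, was at 10808, 27339 and 19096 FPKM at low temperature and 14999, 17506 and 21110.1 FPKM at room temperature, with overlap. Across the temperatures phosphoenolpyruvate carboxykinase averaged 99.1 ± 28.4 FPKM at low temperature, 40.9 ± 10.1 FPKM at room temperature and 88.2 ± 21.8 FPKM at high temperature (mean ± SD of 3 libraries each).

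Genes of mitochondrial fuel use were counted in 3 lists. In the citric acid cycle 4 of 34 lay below and 2 above, and 3 below and 1 above at equal FPKM sums. In oxidative phosphorylation 4 of 40 lay below and 0 above, and 7 below and 0 above at equal FPKM sums, and in fatty acid oxidation 6 of 40 lay below and 1 above, and 3 below and 1 above at equal FPKM sums. The median log2 change of oxidative phosphorylation was -0.21, and 0.09 without low temperature replicate 1. Cytochrome c, the electron carrier, was at 34.9, 68.2 and 55.5 FPKM at low temperature, against 88.8, 104 and 103 FPKM at room temperature (log2 change -0.94, SE 0.3, limma adjusted p = 0.378). A malate dehydrogenase model was at 1.88, 2.45 and 3.45 FPKM at low temperature, against 7.55, 9.4 and 7.44 FPKM at room temperature (log2 change -1.36, limma adjusted p = 0.14), while the abundant mitochondrial malate dehydrogenase was at 228, 325 and 298 FPKM at low temperature, against 346, 453 and 340.1 FPKM at room temperature (log2 change -0.42, limma adjusted p = 0.795). Outside the mitochondrion, the model matching the cytosolic branched-chain-amino-acid aminotransferase, from the list of amino acid metabolism, was at 208, 229 and 91 FPKM at low temperature, against 619, 317 and 429 FPKM at room temperature (log2 change -1.42, limma adjusted p = 0.307).

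Desaturases and elongases are known to remodel membrane lipids in cold-exposed animals. Of 7 tested in this list 1 lay above every room temperature library and 0 below, with a median log2 change of 0.19. That one was acetyl-CoA carboxylase, the first step of fatty acid synthesis, at 2.08, 1 and 1.49 FPKM at low temperature and 0.584, 0.882 and 0.42 FPKM at room temperature (log2 change 0.62, limma adjusted p = 0.507). Stearoyl-CoA desaturase 5, which puts a double bond into fatty acids and was the most abundant of the list, was at 60.7, 42.7 and 35.1 FPKM at low temperature and 39.4, 50.6 and 30.3 FPKM at room temperature, with overlap (log2 change 0.19, limma adjusted p = 0.919). Of 79 genes of sterol and phospholipid metabolism 5 lay above and 6 below (6.33% and 7.59%), near the 6.51% and 8.73% of all gene models. At equal FPKM sums 4 lay above and 3 below. Among them sphingosine kinase 1, which makes the signalling lipid sphingosine phosphate, was at 0.773, 2.49 and 1.86 FPKM at low temperature, against 17.5, 5.22 and 4.82 FPKM at room temperature (log2 change -1.75, limma adjusted p = 0.223).

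Contractile genes overlapped between the groups. None of 14 tested thick filament genes and none of 22 thin filament and Z-disc genes had non-overlapping libraries, in the deposited scaling, at equal FPKM sums or after quantile normalisation. By limma 0 of either list were called; at an unadjusted p under 0.05 there were 0 thick filament genes and 1 thin filament gene in each direction, and with array weights and voom 0 were called. The median log2 change of the thick filament list was 0.09, and 0.20 at equal FPKM sums, and that of the thin filament list was -0.05, and 0.06 at equal FPKM sums. Among calcium handling genes 3 of 22 lay above and 1 below (13.6% and 4.55%), and 2 above and 1 below at equal FPKM sums. A calmodulin model, a calcium sensor, was at 9.62, 10.5 and 16.8 FPKM at low temperature, against 6.27, 3.91 and 8.02 FPKM at room temperature (log2 change 0.92, limma adjusted p = 0.379). Sodium/calcium exchanger 2, which moves calcium out of the cell, was at 11.5, 10.7 and 16 FPKM at low temperature, against 7.67, 9.9 and 9.15 FPKM at room temperature (log2 change 0.46, limma adjusted p = 0.637). The sarcoplasmic calcium-binding protein, the most abundant of this list, was at 4766 to 13696 FPKM at low temperature and 8622 to 16209 FPKM at room temperature, with overlap.

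Regulatory genes lay on both sides. Early growth response protein 1, a zinc finger factor made quickly after stimulation, was at 0.29, 0.59 and 0.97 FPKM at low temperature, against 2.84, 3.96 and 5.61 FPKM at room temperature (log2 change -1.65, SE 0.28, limma adjusted p = 0.0576), and passed the threshold at a pseudocount of 0.1, with array weights and with voom. The model carries no Pfam domain. A retinoic acid receptor RXR model, a nuclear receptor, was at 5.09, 3.93 and 1.58 FPKM at low temperature, against 16.7, 9.43 and 13.1 FPKM at room temperature (log2 change -1.69, limma adjusted p = 0.136). A Runt-related transcription factor 1 model, 1 of 2 tested of that name, was at 0.68, 2.01 and 1 FPKM at low temperature, against 11.6, 4.16 and 7.45 FPKM at room temperature (log2 change -1.92, limma adjusted p = 0.0754). Of 26 MAP kinase and phosphatase genes 4 lay above and 3 below (15.4% and 11.5%), and 2 above and 1 below at equal FPKM sums. Among those above was dual specificity protein phosphatase 7, which switches off MAP kinases, at 51.6, 52.1 and 67.1 FPKM at low temperature and 37.6, 19.4 and 38.9 FPKM at room temperature (log2 change 0.87, limma adjusted p = 0.492).

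Few clock and hypoxia genes were tested. Of 5 tested circadian genes 4 had a log2 change above 0 and 2 lay above every room temperature library (median 0.70), and 1 at equal FPKM sums, where Period overlapped. Period, which represses its own transcription in a daily cycle, was at 19, 16.3 and 14.5 FPKM at low temperature, against 11.1, 12.5 and 6.71 FPKM at room temperature (log2 change 0.70, limma adjusted p = 0.593); its model overlaps another gene model. The other one above matched neuronal PAS domain-containing protein 4, a factor that follows nerve activity in mammals and is no clock component, at 23.3, 26.1 and 36.6 FPKM at low temperature, against 9.68, 15.3 and 18.1 FPKM at room temperature (log2 change 0.97, limma adjusted p = 0.379). Cryptochrome-1, a light sensor or repressor of the clock in other animals, overlapped, at 78.4, 147 and 92.9 FPKM at low temperature and 50, 100.2 and 23.7 FPKM at room temperature (log2 change 1.04, limma adjusted p = 0.575). The hour at which each tissue was taken was not given in the labels. All 5 tested hypoxia response genes had a log2 change below 0 (median -0.78), and 2 lay below every room temperature library, and 1 at equal FPKM sums. Of the 2, hypoxia-inducible factor 1-alpha inhibitor, an oxygen-sensing hydroxylase, was at 4.71, 5.88 and 6.9 FPKM at low temperature and 10.8, 12.1 and 9.27 FPKM at room temperature (log2 change -0.78, limma adjusted p = 0.566).

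Immune genes lay on both sides. Of 61 tested, 4 lay above and 7 below (6.56% and 11.5%), against 6.51% and 8.73% of all gene models. At equal FPKM sums 6 lay above and 3 below. Peptidoglycan-recognition protein SD, a sensor of bacterial cell wall, was at 1.7, 2.43 and 3.34 FPKM at low temperature, against 0.135, 0.689 and 0.158 FPKM at room temperature (log2 change 1.39, SE 0.291, limma adjusted p = 0.144), with 89 reads at low temperature and 13 reads at room temperature. Toll-like receptor 2 was at 4.53, 3.17 and 2.79 FPKM at low temperature, against 1.38, 1.16 and 0.58 FPKM at room temperature (log2 change 1.14, limma adjusted p = 0.206). The NF-kappa-B p105 subunit, a transcription factor of immune responses, was at 13.6, 16.6 and 7.91 FPKM at low temperature, against 69.7, 26.6 and 21.5 FPKM at room temperature (log2 change -1.42, limma adjusted p = 0.339), and interferon regulatory factor 2 was at 8.32, 13.8 and 9.82 FPKM at low temperature, against 86.9, 22.3 and 14.9 FPKM at room temperature (log2 change -1.48, limma adjusted p = 0.446). Room temperature replicate 1 was the highest library for both. Big defensin, an antimicrobial peptide, was at 92.8 to 645 FPKM at low temperature and 266 to 824 FPKM at room temperature, with overlap.

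Genes for detoxification and antioxidant defence made up separate lists. Of 68 tested cytochrome P450 and conjugating genes 11 lay below and 7 above (16.2% and 10.3%), and 9 below and 5 above at equal FPKM sums. Of 43 antioxidant genes 3 lay below and 0 above (6.98% and 0.0%), and 2 below and 3 above at equal FPKM sums. A glutathione S-transferase model, which joins glutathione to reactive compounds, was at 12.6, 19.5 and 12.7 FPKM at low temperature, against 95.9, 34.6 and 148 FPKM at room temperature (log2 change -2.36, SE 0.514, limma adjusted p = 0.15); 2 models of the same name lie within 20000 bases of it. The cytochrome P450 matching 7-alpha-hydroxycholest-4-en-3-one 12-alpha-hydroxylase, an enzyme of bile acid synthesis in mammals, was at 0.267, 0.197 and 0.428 FPKM at low temperature, against 13.3, 3.32 and 11.2 FPKM at room temperature (log2 change -2.81, SE 0.473, limma adjusted p = 0.0579). Glutamate--cysteine ligase, which limits glutathione synthesis, was at 3.02, 3.34 and 2.08 FPKM at low temperature, against 5.13, 5.42 and 8.15 FPKM at room temperature (log2 change -0.91, limma adjusted p = 0.308).

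Matrix genes had a median log2 change that turned sign without 1 library. Of 38 collagens, laminins, integrins and related genes 4 lay above and 2 below (10.5% and 5.26%, median 0.18), and 3 above and 0 below at equal FPKM sums. The median was -0.09 without low temperature replicate 1 and 0.44 without low temperature replicate 3. A collagen alpha-3(VI) match, a chain of the beaded filament around cells, was at 49.8, 73.2 and 40.6 FPKM at low temperature, against 13, 27.1 and 34.7 FPKM at room temperature (log2 change 1.16, SE 0.37, limma adjusted p = 0.378). An alpha-5(VI) match lay on the other side, at 15.5, 14.3 and 5.49 FPKM at low temperature, against 21.2, 16 and 23.1 FPKM at room temperature (log2 change -0.82, limma adjusted p = 0.572). Of 20 metalloproteinases 3 lay above and 2 below, in either scaling. Among those above was tolloid-like protein 2, a protease that processes collagen precursors and bone morphogenetic protein inhibitors, at 7.05, 5.3 and 6.16 FPKM at low temperature and 4.21, 1.77 and 2.33 FPKM at room temperature (log2 change 0.97, limma adjusted p = 0.292).

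In some gene models 1 room temperature library was far above the rest. Peroxidasin, a matrix peroxidase, was at 0.105, 0 and 0 FPKM at low temperature, against 0.763, 2.32 and 26.2 FPKM at room temperature (log2 change -2.39, limma adjusted p = 0.532), and hephaestin-like protein, a copper oxidase, was at 0.239, 0.132 and 0 FPKM at low temperature, against 0.832, 2.02 and 19.6 FPKM at room temperature (log2 change -2.12, limma adjusted p = 0.487). Room temperature replicate 3 was the highest library in both. Zwei Ig domain protein zig-4, a secreted protein of nematode neurons, was at 0.154, 0.177 and 0.22 FPKM at low temperature, against 65.7, 2.65 and 8.71 FPKM at room temperature (log2 change -3.49, SE 0.817, limma adjusted p = 0.206), with room temperature replicate 1 highest.

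Some gene models without a protein name are named here by their domain, chosen after their values were seen. A gene model with a lipocalin or fatty-acid binding domain, on Contig1023, was at 822, 719 and 476 FPKM at low temperature, against 2014, 2893 and 2631 FPKM at room temperature (log2 change -1.92, SE 0.37, limma adjusted p = 0.101). A gene model with an inhibitor of apoptosis domain, on Contig646, was at 155, 45 and 199 FPKM at low temperature, against 38.3, 18 and 9.6 FPKM at room temperature (log2 change 2.50, SE 0.61, limma adjusted p = 0.206). A gene model named by the mitochondria-eating protein domain was at 8.38, 12.8 and 7.24 FPKM at low temperature, against 0, 0 and 3.16 FPKM at room temperature (log2 change 2.67, limma adjusted p = 0.308). Among the most abundant named gene models above, programmed cell death protein 4, an inhibitor of translation initiation in mammals, was at 404, 352 and 330 FPKM at low temperature and 174, 292 and 285 FPKM at room temperature (log2 change 0.56, limma adjusted p = 0.637). Spectrin alpha chain, of the membrane skeleton, was at 133, 147 and 145 FPKM at low temperature, against 115, 107 and 113 FPKM at room temperature (log2 change 0.34, limma adjusted p = 0.877).

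Markers of other tissues were low beside the muscle genes. The table held 89 cilia markers, of which 11 were at 0 in all 6 libraries. The 14 tested ones summed to 37.6 to 41.6 FPKM at low temperature and 45.8 to 50.6 FPKM at room temperature. In the deposited scaling these sums do not overlap, and 3 markers lay below and 0 above. At equal FPKM sums 2 lay below and 0 above. The 3 tested digestive gland markers of 46, of which 15 were at 0, summed to 7.38 to 8.46 FPKM at low temperature. At room temperature they summed to 4.74 to 6.88 FPKM, also without overlap in the deposited scaling. Marker sums were not recomputed at equal FPKM sums, so their non-overlap is stated for the deposited scaling only. Sums overlapped for the other marker lists. The 8 haemocyte markers of 13, of which 3 were at 0, summed to 287 to 1108 FPKM at low temperature and 502 to 1197 FPKM at room temperature. The 4 shell or mantle markers of 58, of which 22 were at 0, summed to 29.4 to 41.3 FPKM at low temperature and 38.6 to 65.4 FPKM at room temperature. The 9 gonad markers of 41, of which 6 were at 0, summed to 28.3 to 53.7 FPKM at low temperature and 38.2 to 47.6 FPKM at room temperature, and the 4 nerve markers of 25, of which 2 were at 0, to 20.6 to 36.8 FPKM at low temperature and 22.1 to 26.5 FPKM at room temperature. The part of these cells in the immune, matrix and detoxification results was not tested.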

How the data were processed

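RNA-seq libraries of adductor muscle were compared between low and room temperature. The deposited table holds FPKM, per the file headers. HISAT2 2.0.4 and HTSeq 0.9.1 are named in the submitters' processing notes; the genome build, the strand setting and the scaling were not given. FPKM multiplied by gene length and divided by the smallest such product above 0 of each library, taken as 1 read, gave whole reads for 100% of values within 0.01 read. Depth was taken from these reads; the divisor of the FPKM differs from it.

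Differences were tested on log2(FPKM + 1) with limma 3.58.1 (R 4.3.3): group means of all 9 libraries, a variance trend with level, and Benjamini-Hochberg adjustment over the 8544 gene models. This scale understates changes of low gene models, and a gene model near 0 in one group passes the filter only through the other. The step was checked on simulated data.

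The members, 45 lists of function and 7 marker lists (words in protein names) were chosen with earlier results of these data known. Genes were named by rule: all called; the 12 greatest rises and 12 greatest falls among named non-overlapping ones; per list up to 2 non-overlapping members per direction and the most abundant; and the 5 most abundant non-overlapping per direction. Outside the rule, and after their values were seen, splicing factor 3B subunit 1, protein disulfide-isomerase A6, HSP70 B2 on Contig80, the b(0,+)-type and monocarboxylate transporters and voltage-dependent calcium channel type D were named, as were 3 models known by their domain. Python 3.11.15, pandas 2.3.3 and matplotlib 3.10.9 were used.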

Additional observations from a re-analysis of the deposited data

How the results depend on the processing

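The count of 13 gene models called lower became 15 at a pseudocount of 0.1, 9 at a mean of at least 5 FPKM, 9 with the 6 low and room temperature libraries alone and 13 with robust variance, 1 with no filter (21124 gene models tested), 7 at equal FPKM sums, 8 after quantile normalisation, 29 with array weights, 7 with voom on recovered reads, and 0 to 12 with single libraries left out. The count of 0 called higher became 4 with array weights, 1 with voom and 0 to 1 with single libraries left out. Gene models below every room temperature library numbered 746, and 1274 with no filter, 350 at a mean of at least 5 FPKM, 382 at equal FPKM sums, 655 after quantile normalisation and 1090 to 1300 with single libraries left out. Those above numbered 556, and under the same alternatives, in that order, 1175, 154, 541, 652 and 862 to 1028. Leaving out a library makes non-overlap easier to meet by construction; the cause of the other shifts was not tested. With the replicate number as a block, 10 were called lower and 0 higher, 8 of them among the 13. Deviations of same-numbered low and room temperature libraries from their group means had correlations of 0.0735, -0.0332 and 0.0596. Differently numbered libraries were not compared, so these values cannot settle whether the numbers pair libraries. For 157 named gene models with non-overlapping libraries, 2590 log2 changes were recomputed over the alternatives, and 0 turned sign. Where groups do not overlap, only a rescaling of the libraries could turn it, so this 0 is largely fixed by the choice of gene models. A call was lost in 97 recomputed values, all of them of the 13 called gene models, which had 16 or 17 alternatives each. In 20 values a gene model was called where the reported value was not. Of 571 recomputed list medians 79 moved by more than the spread between low temperature libraries, and 23 of 52 lists had a median of the other sign under at least 1 alternative. Depth limits gene models of few reads, such as growth/differentiation factor 15 with 3 reads at low temperature.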
